A study of Danio rerio with 21 samples.

Results

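The genes described here encode isoforms of 5 enzymes of glycolysis: the hexokinases hk1 and hk2, the phosphofructokinase pfkma, the enolases eno1a, eno1b and eno3, the pyruvate kinases pkma and pkmb, and the lactate dehydrogenases ldha and ldhba. They were found by their symbols in the array's probe annotation, and all 10 of 10 had a single feature (a set of probes) that passed the signal filter. They stand among 11687 named genes tested. Hearts of adult zebrafish of the TU strain, 10 to 11 months old, were injured by local freezing (cryoinjury), and ventricles were collected 4 hours (hpi) or 1 day (dpi) later, or after 3, 7, 14 or 90 days. Ventricles of uninjured fish were the controls, and no transgene or drug treatment was named for any group. Each of the 7 groups had 3 pools of 5 ventricles, and each pool was hybridised to its own array, 21 in all. A supplementary sheet of the study heads the control column sham, while the sample labels and the methods say uninjured, so whether controls were operated on cannot be told here.

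Glycolysis splits glucose into pyruvate in the cytosol and yields ATP without oxygen. The adult heart draws most of its ATP from fatty acids burnt in mitochondria, and glycolysis is known to gain weight in heart muscle that is short of oxygen or dedifferentiates. Hexokinase traps glucose in the cell, phosphofructokinase makes the committed step, enolase and pyruvate kinase finish the path to pyruvate, and lactate dehydrogenase interconverts pyruvate and lactate. Most of these enzymes exist in forms named after the mammalian tissue where they dominate, such as the beta-enolase of striated muscle (eno3) and the alpha-enolase of most other tissues (eno1). Teleost fish carry extra copies of several of these genes, marked a and b.

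The values are log2 signals, which compare a gene between pools and cannot set the level of one gene against that of another. A fold change here is a difference of group means on the log2 scale ± standard error (SE). A gene was called higher or lower at a limma adjusted p under 0.05 over the 35783 features with a log2 signal above 6 in at least 1 array. Array medians over all features lay between 5.138 and 5.196. In control hearts eno1b, at 5.02, lay below these medians, so its rises are lower limits, and pfkma lay below the median of its own array in all pools of 1 and 3 dpi and 1 pool of 90 dpi, so its falls at these times are lower limits. Pools of the same group correlated at 0.952 to 0.977 and pools of different groups at 0.844 to 0.969. The cardiomyocyte markers myl7, tnnt2a and myh6 were at 12, 12.98 and 9.43 in control hearts. The defining skeletal muscle markers mylpfa, myhz2 (which did not pass the filter) and tnnt3b were at 3.86, 4.50 and 4.61, below the array medians. The mean signal of 11 tested skeletal muscle genes was higher, 6.58 to 7.07 in control pools, and only 4 of them lay below the array median in all 3 control pools. RNA of a whole ventricle does not separate fewer cells of a type from less RNA per cell. All 6 comparisons with control share the same 3 control pools.

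The members took different directions after injury: at both 1 and 3 dpi hk2 and eno1b were higher, while hk1, pfkma, pkmb, eno3 and ldhba were lower. At 4 hpi 2 members were higher (hk2 and eno1b) and pkmb alone was lower, beside 21.3% of all tested features called higher and 17.5% called lower. At 1 dpi the counts were 2 higher and 5 lower, beside 22.0% and 16.5%, and at 3 dpi again 2 and 5, beside 20.7% and 14.9%. At 7 dpi eno1b was higher and pfkma and pkmb were lower (14.5% and 8.02% of all features). At 14 dpi 2 were higher and 2 lower (9.39% and 4.57%). At 90 dpi eno1b was higher and pfkma and hk1 were lower (11.2% and 7.68%). The calls of ldhba at 3 dpi, hk2 at 14 dpi and hk1 at 90 dpi were each lost without any one of 5 of the 6 pools compared. The counts of members higher at 4 hpi, 1 dpi, 3 dpi and 90 dpi were near the shares of all features. The median change over the 10 members was -0.29 at 1 dpi and -0.26 at 3 dpi, against 0.05 and 0.02 over all features, and lay between -0.11 and 0.06 at the other times. pkma, eno1a and ldha were not called against control at any time.

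**Figure D1:**
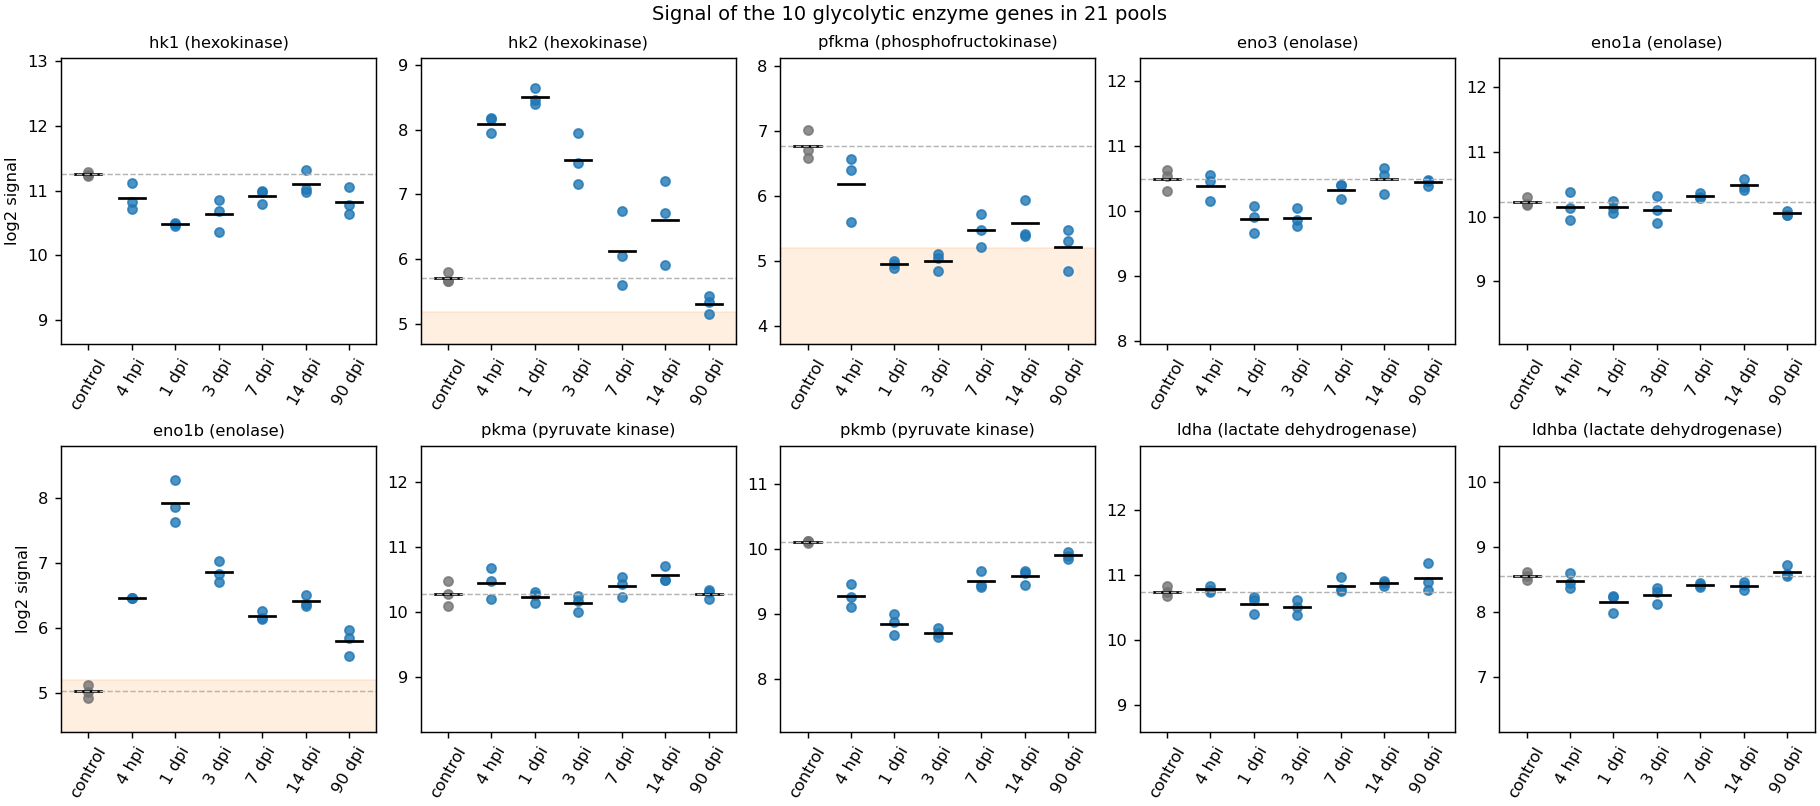
Log2 signal (vertical axis) of each gene in every pool (points) by group (horizontal axis, in order of time and not to scale), with group means as black bars, the control mean dashed, and signals up to the highest array median shaded. Every panel spans the same range of log2 signal; hk2 and eno1b rise to means of 8.50 and 7.92 at 1 dpi, while pkmb and pfkma lie below all control pools at every time.

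The hexokinases moved in opposite directions. hk2 encodes the hexokinase of skeletal muscle and heart in mammals, which other tissues induce under stress or growth. Its log2 signal was 5.66, 5.67 and 5.81 in the 3 control pools, 8.16, 8.17 and 7.94 at 4 hpi, and 8.39, 8.64 and 8.45 at 1 dpi. The pools then measured 7.94, 7.49 and 7.16 at 3 dpi, 6.05, 6.74 and 5.61 at 7 dpi, 6.72, 5.91 and 7.21 at 14 dpi. By 90 dpi they measured 5.43, 5.16 and 5.34. Every pool at 4 hpi, 1 dpi and 3 dpi was above every control pool, the pools at 7 dpi straddled the controls, and all 3 pools at 90 dpi were below them. The change was 2.38 ± 0.28 at 4 hpi, 2.78 ± 0.28 at 1 dpi (6.87-fold) and 1.82 ± 0.28 at 3 dpi (adjusted p = 5.6e-06, 6.6e-07 and 7.2e-05). The difference between 4 hpi and 1 dpi, 0.41 ± 0.28, was not called (adjusted p = 0.295). At 14 dpi it was higher by 0.90 ± 0.28 (adjusted p = 0.0419), a call that was lost without any one of the 3 control pools or without pool 1 or 3 of 14 dpi (adjusted p = 0.0758 to 0.2). At 90 dpi the change of -0.40 ± 0.28 was not called (adjusted p = 0.339). hk2 passed the signal filter only through 13 arrays, none of control or 90 dpi, so its calls are given as a description. Those at 4 hpi, 1 dpi and 3 dpi were kept without the filter.

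hk1 encodes the widely expressed hexokinase that docks on mitochondria in mammals. Its control pools were tightly grouped at 11.24, 11.22 and 11.29, and its 1 dpi pools at 10.50, 10.46 and 10.49. The signals were 10.83, 10.71 and 11.11 at 4 hpi, 10.36, 10.86 and 10.68 at 3 dpi, and those of 90 dpi were 10.64, 10.77 and 11.06. The remaining pools, at 7 and 14 dpi, lay between 10.80 and 11.32, and only at 14 dpi did they overlap the controls. hk1 changed by -0.77 ± 0.14 at 1 dpi (1.70-fold lower) and by -0.62 ± 0.14 at 3 dpi (adjusted p = 0.000409 and 0.00281). The change at 90 dpi, -0.43 ± 0.14 (adjusted p = 0.0472), lost its call without any one control pool or without pool 1 or 2 of 90 dpi (adjusted p = 0.0867 to 0.138). At 4 hpi it was -0.37 ± 0.14 and missed the limit (adjusted p = 0.052), although all 3 pools were below the controls. Over the 6 pools left out one at a time it was called only without pool 3 of 4 hpi (adjusted p = 0.022), and the highest adjusted p was 0.183.

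pfkma encodes a muscle-type subunit of phosphofructokinase, and its fall did not reverse within the 90 days followed. The control pools were at 7.01, 6.71 and 6.58, and the 4 hpi pools at 5.6, 6.57 and 6.40. The signals were 4.95, 4.89 and 5.0 at 1 dpi, 4.84, 5.10 and 5.04 at 3 dpi. At 7 dpi they were 5.48, 5.73 and 5.22, at 14 dpi 5.94, 5.42 and 5.38, and at 90 dpi 4.85, 5.31 and 5.48. All 18 pools of injured hearts were below all 3 control pools, and those of 1 and 3 dpi were below the array medians, so that the fall at these times was at least the value given. pfkma passed the signal filter only through 5 arrays, those of the control pools and of pools 2 and 3 of 4 hpi. Its calls are therefore given as a description, and they were kept without the filter. The changes were -1.82 ± 0.23 at 1 dpi, -1.77 ± 0.23 at 3 dpi, -1.29 ± 0.23 at 7 dpi, -1.18 ± 0.23 at 14 dpi and -1.55 ± 0.23 at 90 dpi (adjusted p = 7.1e-06, 1.0e-05, 0.000702, 0.00252 and 0.000539). At 4 hpi the change of -0.57 ± 0.23 was not called (adjusted p = 0.0561). In that group pool 2, with the highest pfkma signal, also had the highest mean signal of 11 skeletal muscle marker genes, 8.0, against 6.86 and 7.34 in the other pools of 4 hpi and 6.58 to 7.07 in control pools. Over the 6 pools left out one at a time the change ran from -0.76 to -0.28 (adjusted p = 0.0214 to 0.326). It was called only without pool 2 of 4 hpi, at -0.76. Of other muscle forms in pool 2 of 4 hpi, eno3 (10.15) and ldha (10.74) were the lowest of that group and hk2 (8.17) the highest. The part of skeletal muscle tissue in the pfkma value was not tested.

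Of the enolases, eno1b rose and eno3 fell. eno1b, a copy of the non-neuronal alpha-enolase, measured 4.92, 5.12 and 5.01 in control pools, 6.46, 6.45 and 6.46 at 4 hpi, and 7.63, 7.86 and 8.27 at 1 dpi. It measured 6.82, 6.71 and 7.03 at 3 dpi, 6.25, 6.15 and 6.14 at 7 dpi, 6.51, 6.36 and 6.34 at 14 dpi. Its 90 dpi pools were at 5.84, 5.57 and 5.96. No pool of an injured heart overlapped the controls, and 90 dpi was the lowest of the 6 times. It was higher by at least 1.44 ± 0.14 at 4 hpi, 2.90 ± 0.14 at 1 dpi (at least 7.47-fold), 1.83 ± 0.14 at 3 dpi, 1.16 ± 0.14 at 7 dpi, 1.39 ± 0.14 at 14 dpi and 0.77 ± 0.14 at 90 dpi. All 6 rises were called (adjusted p between 3.6e-10 at 1 dpi and 0.00203 at 90 dpi). eno1b passed the signal filter only through 15 arrays, none of control or 90 dpi, so its calls are given as a description. They were kept without the filter.

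Its paralog eno1a was not called against control at any time. The group means of eno1a lay between 10.05 at 90 dpi and 10.49 at 14 dpi, with 10.22 ± 0.07 (SD, n = 3) in control hearts. The pools of 14 dpi, at 10.58, 10.41 and 10.46, were all above the control pools (10.19, 10.30 and 10.18), and those of 90 dpi, at 10.02, 10.09 and 10.03, were all below. The change at 14 dpi was 0.26 ± 0.12, with an unadjusted p under 0.05 and an adjusted p of 0.157. Over the 6 times the 95% intervals of its change lay within -0.43 and 0.52, so that a change of the size of eno1b's was outside them.

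eno3, the beta-enolase of striated muscle, fell at 1 and 3 dpi only. Its control pools were at 10.63, 10.30 and 10.53, its 1 dpi pools at 9.90, 10.07 and 9.65, and its 3 dpi pools at 9.86, 10.04 and 9.76. At these times the pools did not overlap the controls, and at the other 4 times they did, with means of 10.32 to 10.49. The changes were -0.62 ± 0.14 at 1 dpi and -0.60 ± 0.14 at 3 dpi (adjusted p = 0.00223 and 0.003), and at 14 and 90 dpi -0.00 and -0.05 (adjusted p = 0.996 and 0.828).

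Of the pyruvate kinases, which catalyse the last step of glycolysis, pkmb fell and pkma was not called at any time. Both are copies of the gene PKM, known in mammals for the alternatively spliced muscle and growth forms M1 and M2, which the single signal per gene used here does not tell apart. pkmb measured 10.09, 10.12 and 10.12 in control pools, 9.46, 9.11 and 9.26 at 4 hpi, 8.87, 8.68 and 9.0 at 1 dpi, and 8.65, 8.78 and 8.70 at 3 dpi. It then measured 9.44, 9.42 and 9.66 at 7 dpi, 9.66, 9.63 and 9.45 at 14 dpi. By 90 dpi its pools were at 9.90, 9.85 and 9.96. Every injured pool was below every control pool, with the lowest mean at 3 dpi and means nearer to the control from 7 dpi on. The changes were -0.83 ± 0.11 at 4 hpi, -1.27 ± 0.11 at 1 dpi, -1.40 ± 0.11 at 3 dpi, -0.61 ± 0.11 at 7 dpi and -0.53 ± 0.11 at 14 dpi (adjusted p = 2.1e-05, 1.5e-07, 6.1e-08, 0.00101 and 0.00497). At 3 dpi the control level was 2.64-fold that of injured hearts, and at 90 dpi the change of -0.21 ± 0.11 was not called (adjusted p = 0.207).

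pkma, by contrast, had group means between 10.13 at 3 dpi and 10.56 at 14 dpi and a control mean of 10.28 ± 0.19 (SD, n = 3). Its changes ran from -0.15 at 3 dpi to 0.28 at 14 dpi (adjusted p between 0.184 and 0.995), and their 95% intervals lay within -0.43 and 0.57. The pools of 14 dpi, at 10.71, 10.49 and 10.49, were all above the control pools of 10.09, 10.27 and 10.48, and at the other 5 times pools and controls overlapped.

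The lactate dehydrogenases changed by at most 0.40 log2 units in size. ldhba, a copy of the B subunit that prevails in the mammalian heart, was at 8.50, 8.61 and 8.56 in control pools, 8.23, 8.25 and 7.99 at 1 dpi, and 8.31, 8.37 and 8.13 at 3 dpi. It changed by -0.40 ± 0.10 at 1 dpi and -0.29 ± 0.10 at 3 dpi (adjusted p = 0.00497 and 0.0379), and the second call was lost without any one control pool or without pool 1 or 3 of 3 dpi (adjusted p = 0.0511 to 0.162). ldha, the A subunit that prevails in mammalian skeletal muscle, had means between 10.50 at 3 dpi and 10.96 at 90 dpi, against 10.75 ± 0.07 (SD, n = 3) in control hearts. Its pools were all below the controls at 1 dpi (10.66, 10.41 and 10.62) and at 3 dpi (10.39, 10.62 and 10.51), and all above at 14 dpi (10.91, 10.84 and 10.88). Its changes, from -0.24 ± 0.11 at 3 dpi to 0.21 ± 0.11 at 90 dpi, were not called, although that at 3 dpi had an unadjusted p under 0.05 (adjusted p = 0.105).

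**Figure D2:**
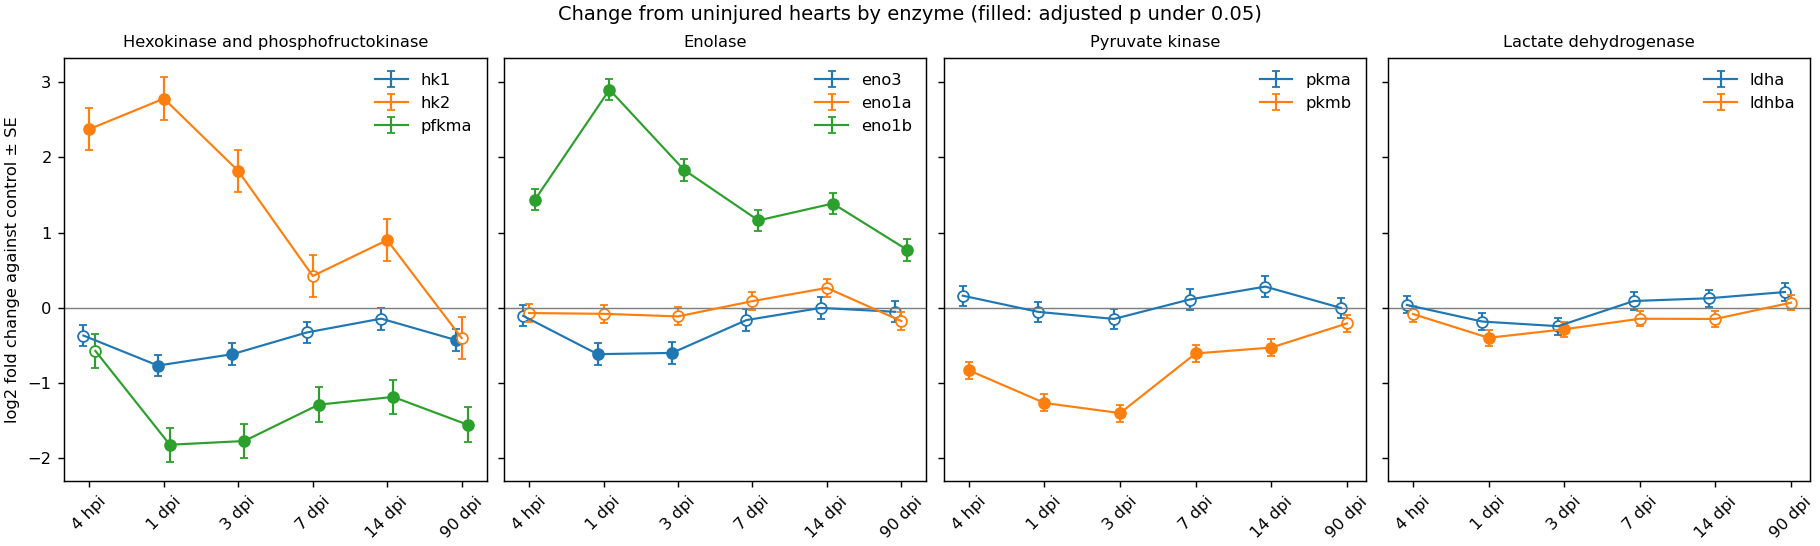
Log2 fold change against uninjured hearts ± SE (vertical axis) by time after injury (horizontal axis, not to scale) for the isoforms of each enzyme, n = 3 pools per group. Filled points passed an adjusted p under 0.05 in limma; eno1b is filled at all 6 times, pfkma and pkmb at 5, and pkma, eno1a and ldha at none.

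Whether isoforms of an enzyme parted from each other was tested on the difference of their log2 signals within a pool, over the 7 groups, for 6 pairs. A permutation test of the F statistic with 100000 permutations gave p-values adjusted over the 6 pairs, and only the movement of a difference between groups is read. The difference of hk2 and hk1 moved by 3.55 ± 0.09 from control to 1 dpi (adjusted permutation p = 2e-05 over the groups) and overlapped the control pools again at 90 dpi (0.03 ± 0.16). The difference of eno1b and eno3 moved by at least 3.52 ± 0.33 at 1 dpi and at least 0.82 ± 0.21 at 90 dpi, and that of eno1b and eno1a by at least 2.98 ± 0.24 and 0.95 ± 0.14 (adjusted permutation p = 2e-05 for both pairs). These are lower limits because eno1b lay below the array medians in control pools. These 3 p-values rest on an unadjusted p of 1e-05, the smallest that the permutations can give.

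The paralogs pkma and pkmb parted as well, by 0.99 ± 0.16 at 4 hpi and at most by 1.25 ± 0.14 at 3 dpi, in favour of pkma (adjusted permutation p = 3e-05). For eno1a against eno3 the movement was smaller, 0.54 ± 0.17 at 1 dpi and 0.49 ± 0.15 at 3 dpi (adjusted permutation p = 0.00212), and it was not called without the pools numbered 1 or those numbered 3 (adjusted permutation p = 0.154 and 0.0676). The difference of ldha and ldhba moved by 0.04 ± 0.09 to 0.28 ± 0.06 and was not called over the groups (adjusted permutation p = 0.356). In its pools at 7 and 14 dpi the difference lay above all control pools. At a single time, 3 pools against 3 cannot give an exact two-sided p below 0.1.

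**Figure D3:**
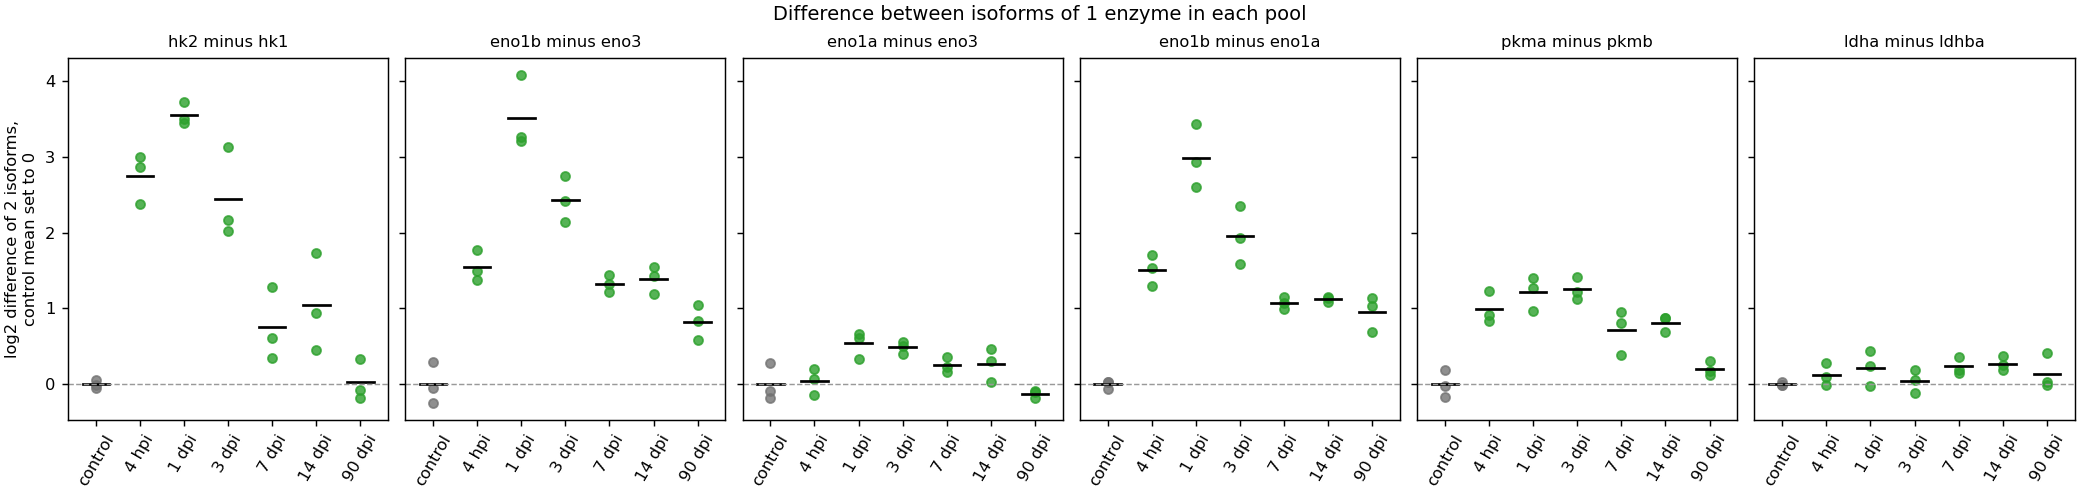
Difference of the log2 signals of isoform pairs in each pool (points), with the mean of the control pools set to 0, by group (horizontal axis, not to scale); black bars are group means. hk2 minus hk1 and eno1b minus eno3 move up by 3.55 and at least 3.52 at 1 dpi (the eno1b pairs are lower limits), pkma minus pkmb by up to 1.25, and ldha minus ldhba by at most 0.28.

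The forms that prevail in heart or skeletal muscle of mammals did not move as a block. Of these, pfkma, eno3 and the heart form ldhba were lower at 1 and 3 dpi, while hk2 rose. ldha was not called, but all its pools at these times were below the controls. Its difference from ldhba was not called over the groups (adjusted permutation p = 0.356), so ldha is not set apart from ldhba. The copies of PKM, whose muscle and growth forms are not told apart here, also differed: pkmb fell and pkma was not called. Of the more widely expressed forms, eno1b rose, eno1a was not called and hk1 fell.

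The comparison of each time with the one before it gave called steps for some members only. After 1 dpi no such step was called for hk1, pfkma, eno3, ldhba, ldha or pkma, so it does not show when these turned. From 4 hpi to 1 dpi eno1b rose further, by 1.46 ± 0.14 (adjusted p = 5.9e-07), and 5 members fell: pfkma by -1.25 ± 0.23, eno3 by -0.51 ± 0.14, pkmb by -0.43 ± 0.11, hk1 by -0.40 ± 0.14 and ldhba by -0.32 ± 0.10 (19.4% of all features were called higher and 15.0% lower). The step of hk1 was lost without any one pool of 1 dpi or without pool 1 or 3 of 4 hpi (adjusted p = 0.0632 to 0.182). Without pool 3 of 1 dpi those of eno3 (adjusted p = 0.0598) and ldhba were lost as well, and that of ldhba also without pool 1 of 4 hpi (adjusted p = 0.100 to 0.127). From 1 to 3 dpi 1 member was called, eno1b, which changed by -1.07 ± 0.14 (adjusted p = 0.000134), beside 2.72% of features higher and 1.27% lower.

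From 3 to 7 dpi pkmb rose by 0.79 ± 0.11 (adjusted p = 0.00071), while hk2 changed by -1.40 ± 0.28 and eno1b by -0.67 ± 0.14 (adjusted p = 0.00656 and 0.00849), beside 2.11% and 4.86%. The step of eno1b was lost without pool 3 of 3 dpi (adjusted p = 0.0525). From 7 to 14 dpi limma called 0 members in either direction, and 0 also at an unadjusted p under 0.05, beside 0.813% of features higher and 1.57% lower. From 14 to 90 dpi 3 members fell, hk2 by -1.30 ± 0.28, eno1b by -0.62 ± 0.14 and eno1a by -0.44 ± 0.12 (adjusted p = 0.00926, 0.013 and 0.0259), beside 4.29% of features higher and 7.03% lower. That of eno1b was lost without pool 1 of 14 dpi or pool 2 of 90 dpi (adjusted p = 0.0579 to 0.0696), and that of eno1a without pool 1 or 3 of 14 dpi or pool 2 or 3 of 90 dpi (adjusted p = 0.0542 to 0.101).

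A direct comparison of 14 with 3 dpi, added after the values of ldha had been seen, spans the return. 6 members were higher at 14 dpi, beside 7.87% of all features: pkmb by 0.87 ± 0.11 (adjusted p = 4.9e-05), eno3 by 0.60 ± 0.14 (adjusted p = 0.00637), and hk1, pkma, eno1a and ldha by 0.47, 0.43, 0.38 and 0.37 (adjusted p between 0.0294 and 0.0337). hk2 and eno1b changed by -0.92 and -0.45 (adjusted p = 0.0304 and 0.0359), beside 11.0% of features lower. The call of hk2 was lost without 4 of the 6 pools (1 or 2 of either time) and that of eno1b without 5 of 6 (all but pool 2 of 3 dpi), with adjusted p between 0.0521 and 0.171. The count of members higher fell to between 2 and 5 when a pool was left out, with 2 without pool 3 of 3 dpi or pool 1 of 14 dpi. The calls of pkmb and eno3 were kept without any one pool.

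The pools also show which other genes followed each member. Over the 21 pools, which share the 7 groups and so most of their variation, and among 11677 other named genes, the 3 genes with the highest Pearson r were taken for each member, as a description. pkmb went with cnot6l, aifm1 and nfs1 (r = 0.972, 0.971 and 0.964); aifm1 and nfs1 encode mitochondrial proteins. hk1 went with immt, fam210aa and lrpprc (r = 0.921, 0.899 and 0.896), and at least immt and lrpprc encode mitochondrial proteins. ldhba went with actn2b and cmlc1 (r = 0.928 and 0.921), genes of the sarcomere, and with zgc:56235 (r = 0.905). eno3 went with dcaf6, with the phosphofructokinase gene pfkpb (r = 0.906 and 0.898) and with pparab, a receptor that controls fatty acid oxidation in mammals (r = 0.895).

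The rising members had other companions. hk2 went with si:ch73-343l4.8, with bms1, which acts in ribosome assembly, and with the stress sensor of the endoplasmic reticulum atf6 (r = 0.965, 0.965 and 0.964). eno1b went with dbnlb, with ctss2.1, which encodes a lysosomal cathepsin, and with gja13.2 (r = 0.956, 0.953 and 0.951). Among the genes nearest to pkma and eno1a were ones known as targets of hypoxia: pkma with ankrd37 (r = 0.821), ahead of ntn1b and snrkb (0.814 and 0.796), and eno1a with cited2, egln3 and pgk1 (r = 0.879, 0.811 and 0.807). ldha went with nt5c2a, hhipl1 and cox4i1l (r = 0.839, 0.836 and 0.828), and pfkma with ppp1r1c, hspa9 and fgf11a (r = 0.892, 0.875 and 0.868). Between members, r was highest for hk2 and eno1b and for pkmb and eno3 (0.80 for both), 0.69 for pkma and eno1a, and lowest for pkmb and eno1b (-0.85).

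In the rest of the pathway falls outnumbered rises at 1 and 3 dpi. Of 27 further genes of glycolytic enzymes listed, 20 were tested, and at 1 dpi 13 were lower and 2 higher, at 3 dpi 11 and 1. Of all features 16.5% were lower and 22.0% higher at 1 dpi, and 14.9% and 20.7% at 3 dpi. The median change of these 20 genes was -0.46 and -0.35, against 0.05 and 0.02 over all features. The falls past 1 log2 unit were those of gpib (glucose phosphate isomerase), tpi1a (triosephosphate isomerase) and ldhbb, the second copy of the B subunit of lactate dehydrogenase, with changes of -1.22 ± 0.13, -1.11 ± 0.14 and -1.15 ± 0.16 at 1 dpi. gapdhs, a glyceraldehyde phosphate dehydrogenase, was higher at every time to 14 dpi, by 0.58 ± 0.10 at 4 hpi and 0.47 ± 0.10 at 1 dpi. eno2, the neuronal enolase of mammals, was higher by at least 1.41 ± 0.18 at 1 dpi only, from a control mean of 4.43 below the array medians. Its mean was 5.85 at 1 dpi and 4.59 to 4.76 at the other times. It may have passed the signal filter only through pools of 1 dpi, so its call there is given as a description.

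The comparison of 14 with 3 dpi gave 11 of these 20 genes higher, beside 7.87% of all features, and the others not called. At 14 dpi 5 were above control and 2 below, beside 9.39% and 4.57% of all features. Those above included pgk1 (phosphoglycerate kinase) by 0.41 ± 0.10 and pgam1a (phosphoglycerate mutase) by 0.61 ± 0.19 (adjusted p = 0.0145 and 0.04). At 90 dpi pgam1a was changed by -0.59 ± 0.19 (adjusted p = 0.038). The 6 phosphofructokinase genes took different courses. pfkmb, the second muscle-type gene, changed by -0.57 ± 0.12 at 1 dpi and was at 11.11 in both control and 90 dpi hearts, whereas pfkma stayed low. pfklb, a liver-type gene, was higher by 0.77 ± 0.18, 0.82 ± 0.18 and 0.96 ± 0.18 at 7, 14 and 90 dpi, and pfkpa, a platelet-type gene, by 0.73 ± 0.14 at 4 hpi, 0.49 ± 0.14 at 7 dpi, 0.84 ± 0.14 at 14 dpi and 0.78 ± 0.14 at 90 dpi.

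**Figure D4:**
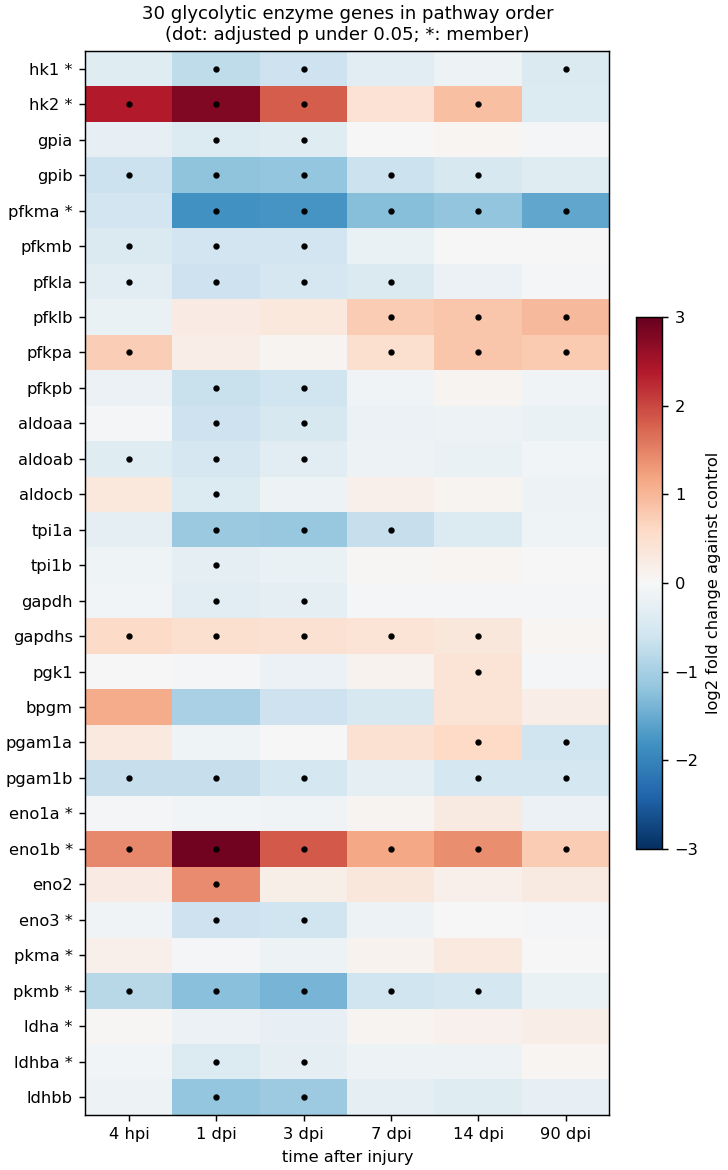
Log2 fold change against uninjured hearts (colour) of 30 genes of glycolytic enzymes (vertical axis, in pathway order, members starred) at 6 times (horizontal axis, not to scale). Dots mark an adjusted p under 0.05 in limma; at 1 dpi 18 of the 30 genes are lower and 4 higher, and hk2 and eno1b have the highest rises, 2.78 and 2.90.

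Genes that act on the phosphofructokinase step changed as well. Of 8 tested, 3 were higher and 5 lower at 4 hpi, beside 21.3% and 17.5% of all features. At 1 dpi 2 were higher, near the 22.0% of all features, and 4 lower, beside 16.5%. pfkfb3 and pfkfb2b encode enzymes that make and break fructose 2,6-bisphosphate, the activator of phosphofructokinase. pfkfb3 was higher by 2.65 ± 0.32 at 4 hpi and by 2.01 ± 0.32 at 14 dpi, and pfkfb2b, the form of heart in mammals, changed by -2.49 ± 0.20 at 1 dpi and -2.31 ± 0.20 at 3 dpi (adjusted p = 6.5e-06, 0.000594, 3.8e-08 and 1.0e-07). Of 11 genes of pyruvate entry into mitochondria, pyruvate dehydrogenase and its regulators, 7 were lower at 1 dpi, beside 16.5% of all features. The 7 included subunits of pyruvate dehydrogenase and a kinase that brakes it, so their count has no single direction for this step. The same 16.5% lower and 22.0% higher stand beside the next counts at 1 dpi. In glycogen metabolism 12 of 14 tested genes were lower at 1 dpi and 1 higher, with a median of -0.80. The muscle glycogen phosphorylase pygma changed by -1.10 ± 0.18, phkb by -1.32 ± 0.14 and ugp2b by 1.21 ± 0.10. Of 16 citric acid cycle genes 14 were lower at 1 dpi (median -0.52), and 4 of 5 pentose phosphate genes were higher (median 0.55), among them taldo1 and pgd by 0.97 ± 0.11 and 0.81 ± 0.14. Of 19 tested genes that respond to hypoxia, 6 were higher and 2 lower at 4 hpi, beside 21.3% and 17.5% of all features. At 1 dpi 3 were higher and 5 lower (22.0% and 16.5% of all features), and at 3 dpi 5 and 4 (20.7% and 14.9%). The counts were 2 and 2 at 7 dpi (14.5% and 8.02%), and 0 and 0 at 90 dpi (11.2% and 7.68%). At 14 dpi 8 were higher and 1 lower, beside 9.39% and 4.57% of all features, and egln3, an oxygen sensor, was higher by 2.18 ± 0.46. The mean signal of these 19 genes was 7.64 to 7.95 in control pools, 8.23 to 8.63 at 4 hpi, 7.80 to 8.04 at 1 dpi and 8.11 to 8.56 at 14 dpi.

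Markers of cell types moved at the same times as the members. Of 27 tested cardiomyocyte genes 18 were lower at 1 dpi and 17 at 3 dpi, with medians of -0.38 and -0.35, and their mean signal was 11.48 to 11.56 in control pools, 11.01 to 11.14 at 1 dpi and 11.43 to 11.45 at 90 dpi. tnnt2a, a defining marker, changed by -0.35 ± 0.08 at 1 dpi and myl7 by -0.20 ± 0.09 (adjusted p = 0.00299 and 0.0991). The defining marker myh6 went the other way, with means of 9.43 in control hearts, 10.18 at 4 hpi, 10.09 at 1 dpi and 10.1 at 14 dpi. At 4 hpi 2 of the 27 genes were higher and 9 lower, beside 21.3% and 17.5% of all features. Of all features 16.5% were lower at 1 dpi and 14.9% at 3 dpi. At 90 dpi 2 of the 27 genes were lower, near the 7.68% of all features, and the median was -0.05.

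General leukocyte genes were higher at 4 hpi, 1 dpi and 3 dpi, as were hk2 and eno1b. At 7 and 90 dpi leukocyte genes and eno1b were still higher, whereas hk2 was not called. At 4 hpi 14 of 18 leukocyte genes were higher, and at 1 and 3 dpi 18 of 18, with medians of 1.33, 2.86 and 2.62. Of all features 21.3%, 22.0% and 20.7% were higher at these times. At 7, 14 and 90 dpi 16, 15 and 10 of 18 were higher, with medians of 1.38, 1.19 and 0.69. The shares of all features higher were 14.5%, 9.39% and 11.2%. The mean signal of these leukocyte genes was 6.09 to 6.27 in control pools, 6.98 to 7.81 at 4 hpi, 8.91 to 9.45 at 1 dpi and 6.71 to 7.14 at 90 dpi. coro1a, a leukocyte marker, rose by 3.92 ± 0.29 at 1 dpi. At 4 hpi 7 of 15 macrophage genes had risen and 1 had fallen, and 13 of 15 had risen at 1 dpi, with mean signals of 6.86 to 7.13 in control pools, 7.58 to 7.87 at 4 hpi and 9.63 to 10.03 at 1 dpi. Among them mpeg1.1 changed by -0.33 ± 0.21 at 4 hpi (adjusted p = 0.242) and by 3.40 ± 0.21 at 1 dpi. Of 11 skeletal muscle genes tested, 6 were higher and 2 lower at 4 hpi, with a median of 0.98. The count lower was near the share of all features at 4 hpi (21.3% higher and 17.5% lower). Of 18 fibroblast and epicardial genes 3 were higher and 8 lower at 4 hpi, 10 higher and 2 lower at 1 dpi, and 16 higher at 3 dpi. Neutrophil genes were higher in 9 of 11 cases at 4 hpi and 1 dpi (1 lower at both), erythrocyte genes in 1 of 15 at 1 dpi (3 lower) and endothelial genes in 4 of 22 (4 lower). The endothelial counts, and the count of erythrocyte genes lower, were near the shares of all features at 1 dpi (22.0% higher and 16.5% lower). The part of any of these cell types in the changes of the members was not tested. For the markers vmhc, mfap4, hbaa1 and hbba1 no feature was found by name.

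**Figure D5:**
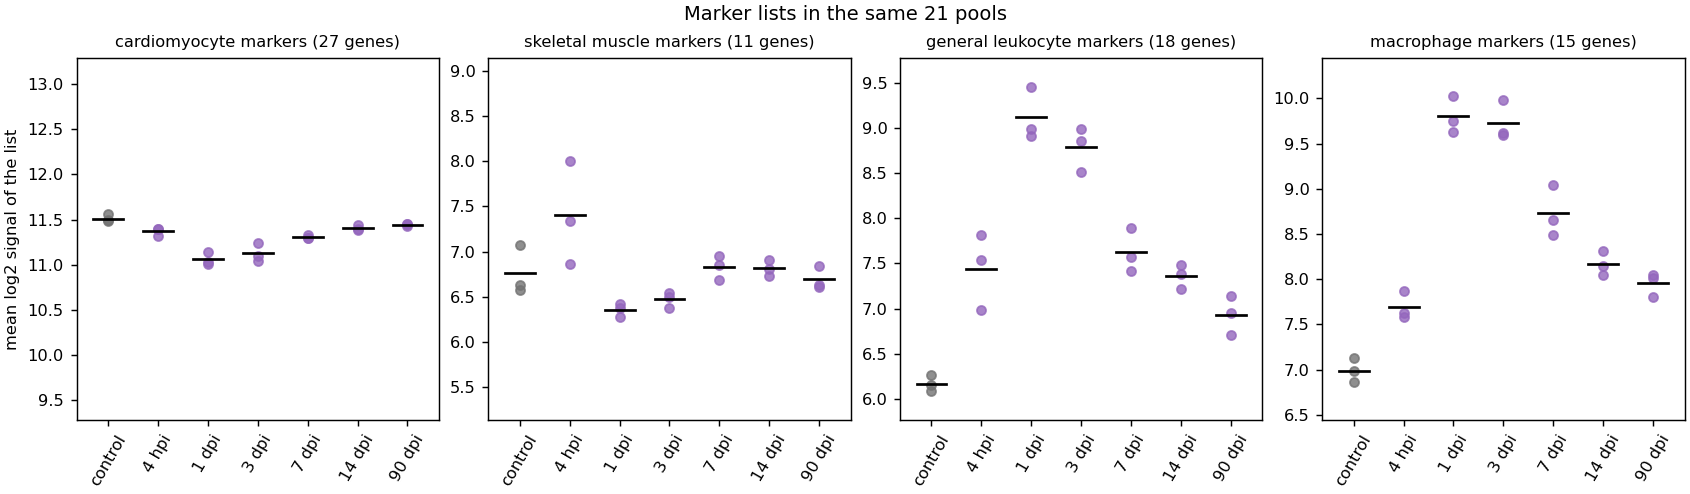
Mean log2 signal of 4 lists of marker genes (vertical axes, each spanning 4 log2 units) in every pool (points) by group (horizontal axis, not to scale); black bars are group means. Leukocyte genes rise from at most 6.27 in control pools to at least 8.91 at 1 dpi, cardiomyocyte genes fall from at least 11.48 to at most 11.14, and pool 2 of 4 hpi has the highest skeletal muscle mean, 8.0.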

How the data were processed

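Values were the authors' deposited log2 signals, obtained from the scans by robust multi-array averaging (RMA) with a correction for GC content in Partek software, and used as deposited: 75212 features on 21 arrays. Of these, 20806 carried a single gene symbol in the array annotation. The genome build was not given in the sources used here, and sequences were not used. Features with a log2 signal above 6 in at least 1 array (35783) entered a single limma 3.58.1 fit of the 7 groups in R 4.3.3, with 14 residual degrees of freedom and Benjamini-Hochberg adjustment over all features within each comparison. The number of arrays, 3 per group, limits the precision. The labels call the pools biological replicates. Isoform differences were tested with Python 3.11.15 and SciPy 1.17.1, and the scripts were tested on simulated data.

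The members and the gene lists were chosen with earlier results of these data known. Other genes are named for a called change past 1 on the log2 scale, as cell type markers or as correlating best with a member. Not every gene with such a change is named, and pfkfb4b, tigarb and pdp1 are among those left out. gapdhs, pgk1, pgam1a, pfkmb, pfklb, pfkpa, taldo1 and pgd were named after their values were seen. Alternatives covered the filter, normalization, variance model, arrays fitted, replicate block, thresholds and left-out pools. Pools of the same number did not deviate together at all times, so the numbers were not taken as pairs.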

Additional observations from a re-analysis of the deposited data

Results flagged for a closer look

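No member was called above control at one time and below it at another, the criterion planned for this section. A wider one was used in its place: all 3 pools above every control pool at one time and all 3 below at another, with a limma call between these times. It was met by 3 members. The share of all features that meet it was not counted, so this count is only a description. hk2 changed by -1.30 ± 0.28 from 14 to 90 dpi (adjusted p = 0.00926), with pools of 5.91 to 7.21 and 5.16 to 5.43 around control pools of 5.66 to 5.81. eno1a changed by -0.44 ± 0.12 between the same times (adjusted p = 0.0259), a call lost without 4 of the 6 pools left out one at a time, 1 or 3 of 14 dpi and 2 or 3 of 90 dpi (adjusted p = 0.0542 to 0.101). ldha was higher at 14 than at 3 dpi by 0.37 ± 0.11 (adjusted p = 0.0294), a call lost without 5 of the 6, all but pool 2 of 3 dpi (adjusted p = 0.0582 to 0.122). That comparison was added after the values of ldha had been seen, so the flag of ldha is only a description. Against control, 1 of these 6 changes was called, that of hk2 at 14 dpi.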

How the results depend on the processing

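Of the 60 values of members against control, 58 kept direction and call without the signal filter and 55 under quantile normalization. Setting array medians equal shifted the median of all features at 1 dpi from 0.051 to -0.134, and the share of calls that were higher from 57.1% to 37.2% there (46.2% under quantile normalization). Over the 6 times this share was 54.9% to 67.3% as deposited, 44.7% to 57.2% under quantile normalization and 37.2% to 48.6% with equal medians. No called member reversed under any alternative. Members lower at 4 hpi came to 2 with a limit of 6 in 3 arrays or a trended variance model, and to 3 under quantile normalization or equal medians. The call of hk2 at 14 dpi was lost without the filter, under equal medians, with only the 6 arrays compared (leaving 1 member higher) and with replicate numbers as a block (1 higher, adjusted p = 0.0565). That of hk1 at 90 dpi was lost without the filter, under quantile normalization, with only 6 arrays (1 lower) and with the block (1 lower, adjusted p = 0.0573). The block, in which pools of a number deviated together in 2 of 3 pairs at most, changed no other call against control. Equal medians added ldha at 1 and 3 dpi (adjusted p = 0.0286 and 0.0263). Quantile normalization added 1 member higher at 90 than at 14 dpi, where 0 were called as deposited. It left 1 of the 2 members called lower at 14 than at 3 dpi.

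At an adjusted p under 0.001 members lower numbered 3, 2, 1, 0 and 1 from 1 to 90 dpi, and 1 and 0 were higher at 14 and 90 dpi. With a 1.6-fold limit 3, 2, 1, 1 and 1 were lower. Uncalled values that changed sign were ldha at 4 hpi (-0.089), eno1a and ldha at 7 dpi (-0.012 and -0.011) under equal medians, and eno3 at 14 dpi (0.029) and pkma at 90 dpi (0.039) under quantile normalization. Leaving out a pool moved eno1a at 4 hpi between -0.18 and 0.031, eno3 between -0.20 and 0.0077 at 4 hpi, -0.10 and 0.11 at 14 dpi and -0.15 and 0.020 at 90 dpi, and pkma between -0.15 and 0.045 at 1 dpi and -0.10 and 0.10 at 90 dpi. It moved members lower between 1 and 2 at 4 hpi and 90 dpi, from 4 hpi to 1 dpi between 2 and 5, from 1 to 3 dpi and from 3 to 7 dpi between 1 and 2, from 14 to 90 dpi between 1 and 3, and from 3 to 14 dpi between 0 and 1. Members higher moved between 1 and 2 at 14 dpi and between 2 and 5 from 3 to 14 dpi. The adjusted permutation p of eno1a against eno3 lay between 0.00262 and 0.154 when the pools of one replicate number were left out. The cause of these changes was not tested. Each member had 1 feature, so averaging features gave the same values.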
